A study of Mus musculus with 8 samples.

Results

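Macrophages are the resident phagocytes of skin, and the genes described here are 10 of their markers: the receptors Csf1r, Adgre1, Cd163, Mrc1 and Cd14, the lysosomal proteins Cd68 and Lyz2, and the complement C1q chains C1qa, C1qb and C1qc. They were chosen by gene symbol, and each probe set annotated to exactly 1 of these symbols was taken, which gave 14 probe sets of the 45037 on the array that are not controls. RNA came from belly skin of mice aged 8 months, 1 animal per array. The transgenic group held 4 animals that carry a transgene for human hurpin, an inhibitor of cathepsin L (females 7 and 84, males 11 and 17). The wildtype group held 3 animals (males 26 and 28, female 29), and female 29 was measured on 2 arrays that were averaged. The promoter of the transgene, the number of founder lines and the strain are not given in the sources used here, and 0 probe sets were annotated to Serpinb13, the mouse gene of the same name.

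Tissue macrophages depend on the growth factor receptor encoded by Csf1r, whose ligands are Csf1 and Il34, and on the transcription factor PU.1, the product of Spi1. Dermal macrophages carry scavenger and lectin receptors such as Cd163 and Mrc1, and they are a main local source of C1q. C1q is the recognition part of the first complement component, built from A, B and C chains that are needed together, and it binds antibody complexes and dying cells before the proteases C1r and C1s are activated. C1qa, C1qc and C1qb lie next to each other on mouse chromosome 4. In the mouse hair cycle the follicle grows in anagen, when it makes hair keratins, and rests in telogen.

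Promoter sequences (250 bases before to 50 bases after the gene's start, from RefSeq, GRCm38.p6) were found for 6 of the 10 genes, which were C1qb, C1qc, Mrc1, Lyz2, Cd68 and Cd163. Of these 6 genes, 4 had a probe set that passed the test against hair keratin described further on, and their sequences are shown 5′ to 3′. Capitals mark GAGGAA, a core of PU.1 binding sites, on either strand. Cd14 and Csf1r also had a probe set that passed, but no promoter sequence was found for them.
C1qb, chr4:136886151-136886450, minus strand: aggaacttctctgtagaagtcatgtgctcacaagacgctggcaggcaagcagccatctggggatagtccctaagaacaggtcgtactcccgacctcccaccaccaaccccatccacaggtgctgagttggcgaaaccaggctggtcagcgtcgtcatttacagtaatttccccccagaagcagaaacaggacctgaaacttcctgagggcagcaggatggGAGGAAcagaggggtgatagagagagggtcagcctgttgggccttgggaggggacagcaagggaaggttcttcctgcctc
C1qc, chr4:136892865-136893164, minus strand: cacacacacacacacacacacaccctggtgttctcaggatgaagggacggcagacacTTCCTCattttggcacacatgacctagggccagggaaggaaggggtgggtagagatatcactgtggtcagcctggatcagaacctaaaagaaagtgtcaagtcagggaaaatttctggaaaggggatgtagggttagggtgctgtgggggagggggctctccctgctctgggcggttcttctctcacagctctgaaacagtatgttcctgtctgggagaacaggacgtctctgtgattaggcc
Mrc1, chr2:14229164-14229463, plus strand: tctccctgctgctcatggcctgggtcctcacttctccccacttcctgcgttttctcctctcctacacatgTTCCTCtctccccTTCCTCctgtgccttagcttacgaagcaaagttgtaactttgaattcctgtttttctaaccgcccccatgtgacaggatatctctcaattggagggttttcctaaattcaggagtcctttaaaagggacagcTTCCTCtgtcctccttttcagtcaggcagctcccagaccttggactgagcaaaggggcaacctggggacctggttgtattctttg
Lyz2, chr10:117282223-117282522, minus strand: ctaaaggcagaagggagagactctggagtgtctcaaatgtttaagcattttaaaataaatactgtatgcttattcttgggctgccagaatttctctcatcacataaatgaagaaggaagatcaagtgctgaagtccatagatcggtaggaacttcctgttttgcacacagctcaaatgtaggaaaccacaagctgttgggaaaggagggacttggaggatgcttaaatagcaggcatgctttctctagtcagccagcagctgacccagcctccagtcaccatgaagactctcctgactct
GAGGAA occurred 1 time in the C1qb and 1 time in the C1qc window, 3 times in that of Mrc1 and 0 times in that of Lyz2. The Cd68 window held it 2 times and that of Cd163 0 times. Among all 32851 promoter windows of this length 28.3% held it. TGANTCA, the AP-1 motif, was searched on both strands too and occurred 2 times in the Cd68 window and 0 times in the other 5, with 7.81% of all windows holding it. The motifs GAGGAA and TGANTCA did not overlap in these windows.

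Values are log2 of the deposited signal plus 21.8, the 20th percentile of all signals, so 1 unit is a doubling for signals well above that. All 14 probe sets passed the level filter (a mean of at least 6.45 over the 7 animals), and the lowest single value of any of them was 7.80. Of the 9 keratinocyte and 6 fibroblast markers fixed to check the tissue, 8 and 6 passed it. The remaining keratinocyte marker, Dsg3, had 0 probe sets with 1 symbol. The 2 arrays of wildtype 29 differed by 0.04 to 0.73 for the 14 macrophage and C1q probe sets, with a median of 0.11, and the largest gap was in C1qa. The animals differed in 2 measures that move with the results below. The hair keratin level, which is the mean log2 signal of 12 hair shaft keratins, was 12.42, 11.66, 9.06 and 12.37 in transgenic 7, 11, 17 and 84, against 6.80, 13.04 and 13.20 in wildtype 26, 28 and 29. Transgenic 17 and wildtype 26 thus had the lowest hair keratin level of their groups. The Gapdh ratio, that of 3′ over 5′ control signal, is high where labelled RNA does not reach the 5′ end and was 13.8, 1.45, 4.68 and 17.2 in transgenic 7, 11, 17 and 84, against 1.14, 1.03 and 1.14 in wildtype 26, 28 and 29.

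**Figure D1:**
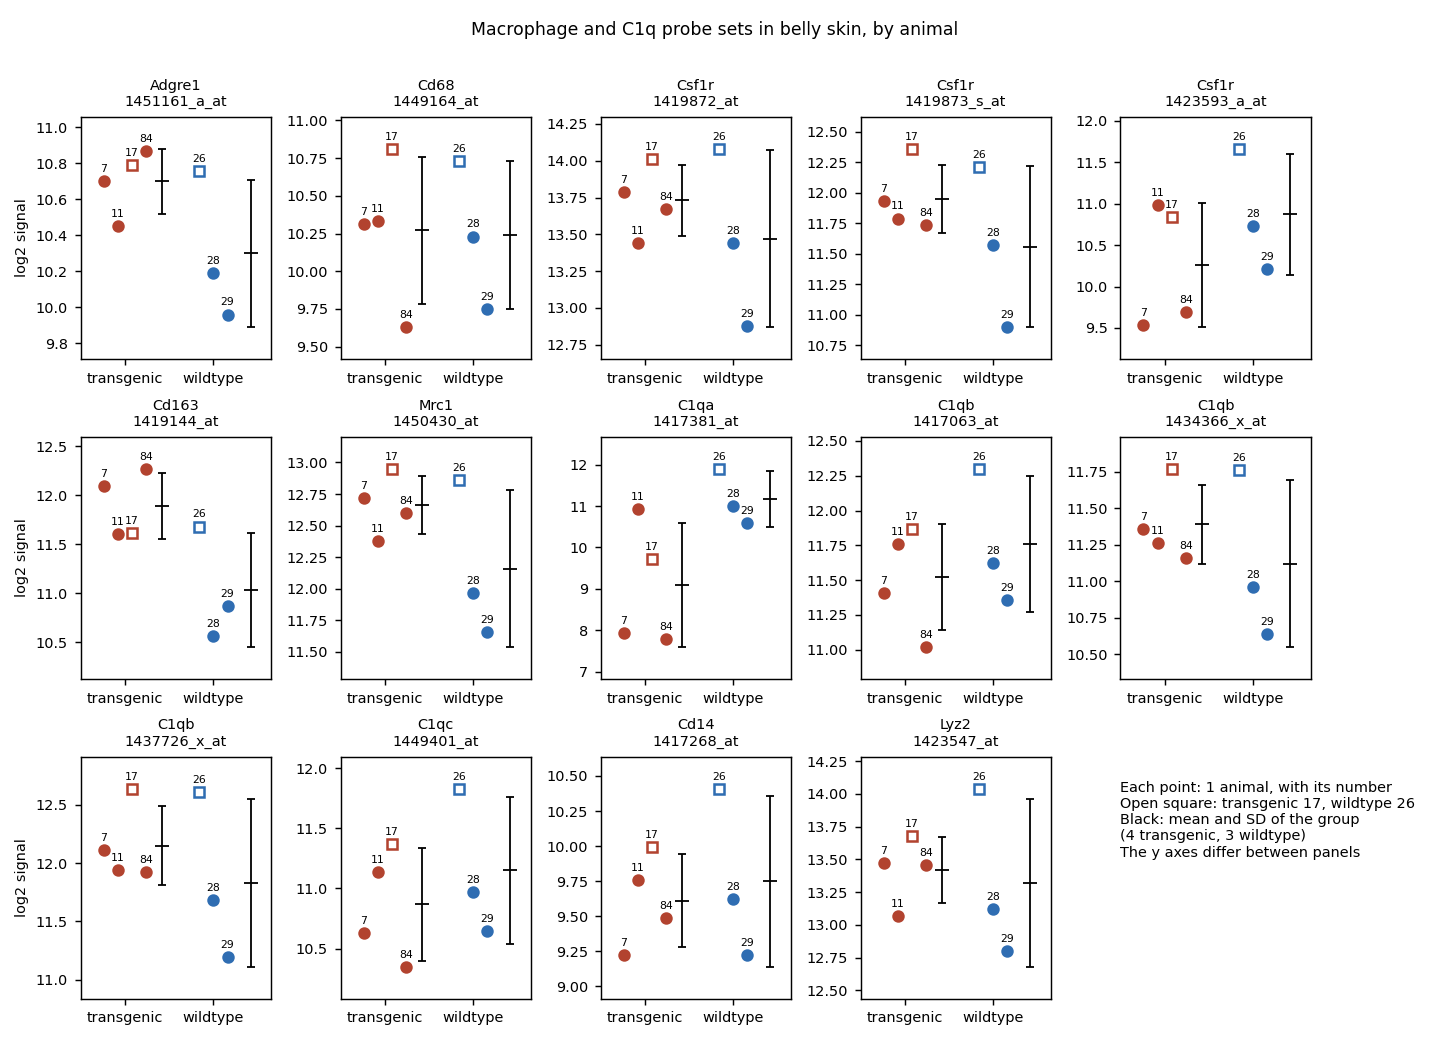
Log2 signal (y axis, with its own range in each panel) of the 14 macrophage and C1q probe sets in transgenic and wildtype belly skin, 1 point per animal, with the mean and SD of each group (n = 4 and 3). Open squares mark transgenic 17 and wildtype 26, and wildtype 26 is the highest wildtype animal in all 14 panels.

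None of the 14 probe sets differed between transgenic and wildtype skin in the test over all probe sets. The log2 difference, transgenic minus wildtype, was above 0 in 9 and below 0 in 5 of them, with a median of 0.18, where the median over all 27022 probe sets tested was 0.00. Limma called 0 of the 14 at an adjusted p under 0.05, and 4 of all 27022 (0.0148%). At an unadjusted p under 0.05 it gave 2 of the 14, Cd163 and C1qa, beside 11.7% of all probe sets (3.77% higher and 7.93% lower in transgenic skin), and an ordinary linear model gave 0 of the 14 at either threshold. The groups overlapped in each of the 14. Over all probe sets the share without overlap was 11.3% (4.58% with transgenic higher and 6.71% with transgenic lower).

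Csf1r, the receptor for colony stimulating factor 1 and interleukin 34, was measured by 3 probe sets. Probe set 1419872_at gave 13.79, 13.44, 14.01 and 13.67 in transgenic 7, 11, 17 and 84, against 14.08, 13.44 and 12.88 in wildtype 26, 28 and 29. The transgenic values lay inside the wildtype range, and the difference was 0.26 (95% confidence interval -0.33 to 0.86, limma adjusted p = 0.718). Probe set 1419873_s_at gave 11.93, 11.79, 12.36 and 11.74 in the transgenic animals in the same order, against 12.21, 11.57 and 10.90 in wildtype. Here transgenic 17 alone stood above all wildtype animals, with a difference of 0.39 (-0.27 to 1.06, limma adjusted p = 0.622). Probe set 1423593_a_at gave 9.54, 10.98, 10.84 and 9.69 in the transgenic animals, against 11.66, 10.73 and 10.21 in wildtype. Transgenic 7 and 84 lay below all wildtype animals in it, and its difference was -0.61 (-1.62 to 0.41, limma adjusted p = 0.617). Over the 7 animals the first and second of these probe sets had a Pearson correlation of 0.97, and the third correlated with them at 0.30 and 0.37.

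Adgre1 encodes an adhesion receptor long used to mark mouse macrophages. It measured 10.70, 10.45, 10.79 and 10.87 in transgenic 7, 11, 17 and 84, against 10.76, 10.19 and 9.96 in wildtype 26, 28 and 29. Transgenic 17 and 84 stood above all wildtype animals, and wildtype 26 stood among the transgenic values. The difference was 0.40 (-0.08 to 0.88, limma adjusted p = 0.49).

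Cd163, the scavenger receptor for haptoglobin-bound haemoglobin, showed the largest positive difference of the 14. It measured 12.09, 11.60, 11.61 and 12.27 in transgenic 7, 11, 17 and 84, against 11.68, 10.56 and 10.87 in wildtype 26, 28 and 29. The group means were 11.89 ± 0.34 for transgenic and 11.03 ± 0.58 for wildtype animals (SD, n = 4 and 3). The difference was 0.86 (SE 0.284, 0.22 to 1.51, limma adjusted p = 0.342). Transgenic 7 and 84, the females with the highest Gapdh ratio, were the highest animals. In a fit that also held the Gapdh ratio the difference was 0.36, and without transgenic 7 and 84 it was 0.57. The Gapdh ratio was high in most transgenic and low in all wildtype animals, so the fit cannot separate it well from the transgene.

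Mrc1, the mannose receptor CD206, measured 12.72, 12.38, 12.95 and 12.60 in transgenic 7, 11, 17 and 84, against 12.86, 11.97 and 11.66 in wildtype 26, 28 and 29. Transgenic 17 was the highest animal and wildtype 26 the next, while wildtype 28 and 29 stood below all transgenic animals. The difference was 0.50 (-0.12 to 1.12, limma adjusted p = 0.50). Cd14, the co-receptor that passes lipopolysaccharide to Tlr4, measured 9.22, 9.76, 9.99 and 9.49 in the transgenic animals, against 10.41, 9.62 and 9.22 in wildtype. The transgenic values lay within the wildtype range, with a difference of -0.13 (-0.81 to 0.54, limma adjusted p = 0.889).

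Cd68, a glycoprotein of macrophage lysosomes, measured 10.31, 10.33, 10.81 and 9.63 in transgenic 7, 11, 17 and 84, against 10.73, 10.23 and 9.75 in wildtype 26, 28 and 29. Transgenic 17 was the highest and transgenic 84 the lowest of all animals, and the difference was 0.03 (-0.66 to 0.73, limma adjusted p = 0.977). Lyz2, the lysozyme of macrophages and neutrophils, measured 13.47, 13.07, 13.68 and 13.46 in the transgenic animals, against 14.04, 13.12 and 12.80 in wildtype. The wildtype values enclosed the transgenic ones, with a difference of 0.10 (-0.53 to 0.73, limma adjusted p = 0.913). Lyz1 is a near copy of Lyz2 and its neighbour in the genome, so signal from the copies may be mixed.

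C1qa encodes the A chain of C1q and showed the largest difference of the 14, in the lower direction. It measured 7.93, 10.93, 9.73 and 7.80 in transgenic 7, 11, 17 and 84, against 11.90, 11.00 and 10.60 in wildtype 26, 28 and 29. Transgenic 7 and 84 were the lowest, transgenic 17 stood between them and wildtype, and transgenic 11 lay within the wildtype range. The means were 9.10 ± 1.50 for transgenic and 11.17 ± 0.67 for wildtype animals (SD, n = 4 and 3). The difference was -2.07 (SE 0.726, -3.72 to -0.42, limma adjusted p = 0.357). This order was the reverse of the order of the Gapdh ratio within the transgenic group. With group in the fit, C1qa had a slope of -0.91 per log2 unit of the Gapdh ratio (SE 0.142, limma adjusted p = 0.0997), and once the ratio was in the fit the group difference turned to 0.21 (SE 0.472, limma adjusted p = 1.0). Without transgenic 7 and 84 the group difference of C1qa was -0.84 (limma adjusted p = 0.91). The ratio was high in most transgenic and low in all wildtype animals, so the fit with it cannot separate it well from the transgene. Transgenic 7 and 84 were also the transgenic females, so sex cannot be told apart from the ratio in them. The cause of the C1qa difference was not tested. Limma called 6 of all 27022 probe sets for that slope (0.0222%) and 0 of the 14, and at an unadjusted p under 0.05 it gave C1qa and Csf1r 1423593_a_at (slope -0.42, SE 0.158), both lower with the ratio, as were 9.13% of all probe sets.

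The other C1q chains lay closer to the wildtype values in transgenic 7 and 84, and their differences were small. C1qb, the B chain, was measured by 3 probe sets, of which 1417063_at gave 11.41, 11.76, 11.87 and 11.02 in transgenic 7, 11, 17 and 84, against 12.30, 11.62 and 11.36 in wildtype 26, 28 and 29. Its difference was -0.25 (-0.86 to 0.37, limma adjusted p = 0.749), and transgenic 84 alone lay below all wildtype animals. Probe set 1434366_x_at gave 11.36, 11.26, 11.77 and 11.16 in the transgenic animals, against 11.76, 10.96 and 10.64 in wildtype, a difference of 0.27 (-0.34 to 0.87, limma adjusted p = 0.718). Probe set 1437726_x_at gave 12.11, 11.94, 12.64 and 11.92 in the transgenic animals, against 12.61, 11.68 and 11.19 in wildtype, a difference of 0.33 (-0.40 to 1.06, limma adjusted p = 0.714). In these last probe sets transgenic 17 and wildtype 26 stood above the other 5 animals, and the pair correlated with each other at 1.0 after rounding over the 7 animals, but with 1417063_at at 0.66 and 0.64. The name of each ends in x_at, which Affymetrix gives to probe sets that may cross-hybridise.

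C1qc, the C chain, measured 10.63, 11.14, 11.37 and 10.35 in transgenic 7, 11, 17 and 84, against 11.83, 10.97 and 10.65 in wildtype 26, 28 and 29. Transgenic 84 lay below all wildtype animals. Transgenic 7 was level with wildtype 29, whose arrays gave 10.69 and 10.61. The difference between the groups was -0.28 (-1.02 to 0.46, limma adjusted p = 0.767). C1qc correlated with C1qb 1417063_at at 0.99 and with C1qa at 0.74 over the 7 animals. C1qa correlated with C1qb 1417063_at at 0.75 but with the other probe sets of C1qb at 0.04 and 0.01, and with Cd163 at -0.66.

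**Figure D2:**
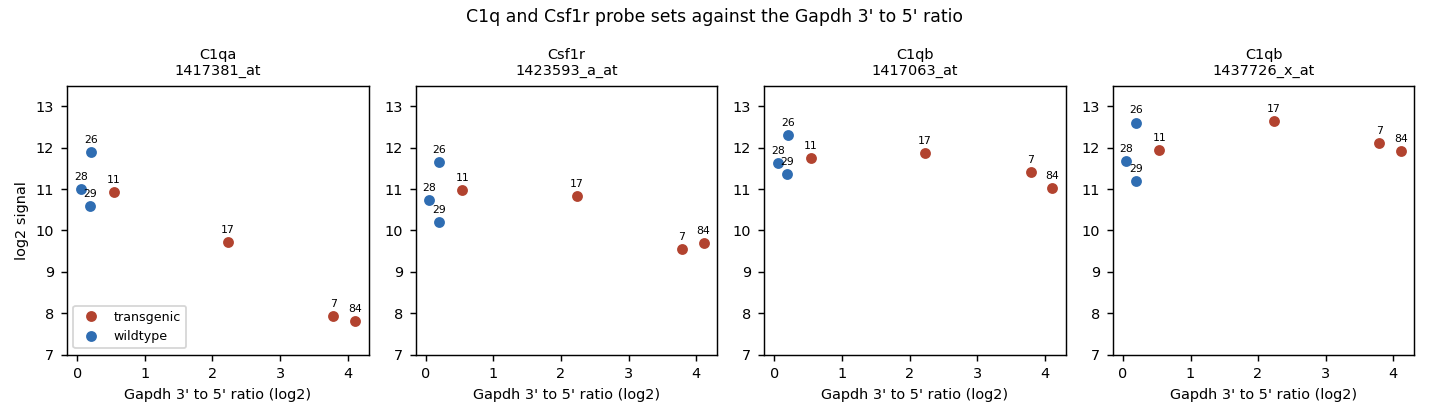
Log2 signal (y axis, the same range in all panels) of C1qa, of Csf1r 1423593_a_at and of 2 probe sets of C1qb against the log2 ratio of 3′ to 5′ Gapdh signal (x axis), 1 point per animal, red for transgenic and blue for wildtype. C1qa stands at 7.93 and 7.80 in transgenic 7 and 84, whose ratios are the highest, while C1qb 1437726_x_at stands at 12.11 and 11.92 in them.

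The next comparison set the macrophage genes against the hair keratin level of the same skin, which differs between animals of both groups. The genes lay higher in the animals with the lowest hair keratin level. Wildtype 26 was the highest wildtype animal in all 14 probe sets, and transgenic 17 was the highest transgenic animal in 10 of them, the exceptions being Adgre1, Cd163, C1qa and Csf1r 1423593_a_at. Both held together in 10 of the 14 and in 18.4% of all 27022 probe sets. These values come from whole skin, so more macrophages and more of each transcript per macrophage cannot be told apart.

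**Figure D3:**
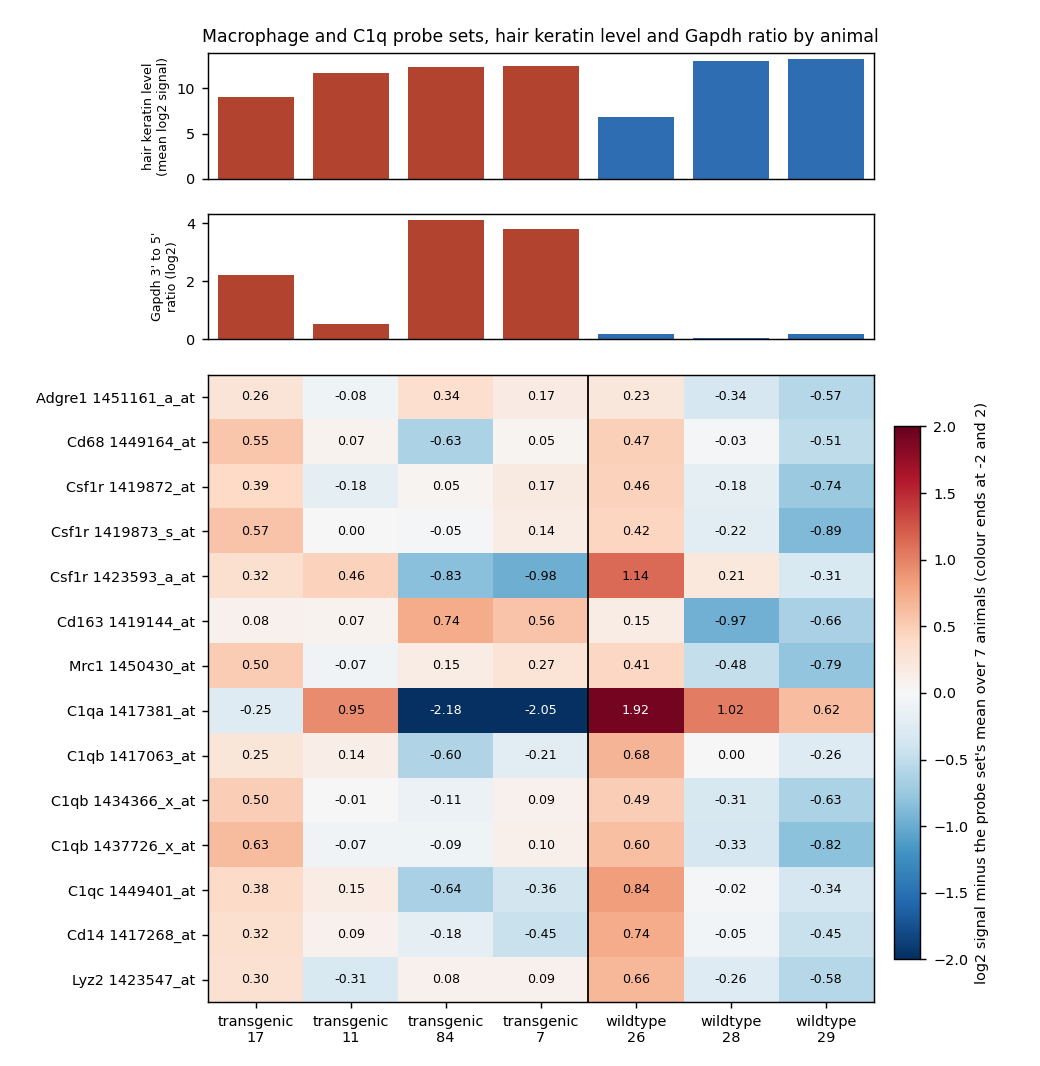
Log2 signal of each macrophage and C1q probe set minus its mean over the 7 animals (colours and printed values), with bars above for each animal's hair keratin level and log2 Gapdh ratio. Animals stand by group, transgenic left, and by rising hair keratin level within it; transgenic 17 and wildtype 26 lie above the mean in all rows, except C1qa in transgenic 17.

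The Pearson correlation with the hair keratin level over the 7 animals was below 0 in all 14 probe sets, from -0.92 for Cd14 to -0.27 for Cd163, with a median of -0.77. The median over all probe sets was -0.13, with 58.1% of them below 0. An exact permutation test (2-sided, 7 animals) gave 7 of the 14 an unadjusted p under 0.05, beside 7.69% of all probe sets with a negative correlation. Cd14 had r = -0.92 (exact permutation p = 0.00417, Spearman rho = -0.89, p = 0.0123), and C1qc had r = -0.87 (exact permutation p = 0.00833, rho = -0.68, p = 0.11). Lyz2 had r = -0.86 (exact permutation p = 0.00714, rho = -0.75, p = 0.0663), as did C1qb 1434366_x_at (exact permutation p = 0.00556, rho = -0.86, p = 0.0238). Probe sets 1437726_x_at and 1417063_at of C1qb gave r = -0.85 and -0.84 (exact permutation p = 0.00893 and 0.0117, rho = -0.86 and -0.75, p = 0.0238 and 0.0663), and Cd68 gave r = -0.78 (exact permutation p = 0.0488, rho = -0.75, p = 0.0663).

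The other probe sets had an exact permutation p of r above 0.05, though rho was as strong for some of them. Csf1r gave r = -0.76, -0.75 and -0.73 for 1419872_at, 1419873_s_at and 1423593_a_at (exact permutation p = 0.0502, 0.0583 and 0.0683), with rho = -0.86, -0.86 and -0.68 (p = 0.0238, 0.0238 and 0.11). Mrc1 gave r = -0.71 (exact permutation p = 0.0647, rho = -0.82, p = 0.0341) and Adgre1 gave r = -0.56 (exact permutation p = 0.163, rho = -0.68, p = 0.11). C1qa gave r = -0.41 (exact permutation p = 0.367, rho = -0.21, p = 0.662) and Cd163 gave r = -0.27 (exact permutation p = 0.608, rho = -0.43, p = 0.354).

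Adjusted over all 27022 probe sets, the exact permutation p of r lay between 0.143 and 0.85 for the 14. The smallest over all probe sets was 0.057. For rho the adjusted exact permutation p of the 14 ran from 0.249 to 0.861. Each p came from 5040 permutations, which limits how small it can be. Without transgenic 17 and wildtype 26, the animals farthest from the median hair keratin level, r over 5 animals lay between -0.80 (C1qb 1434366_x_at) and 0.18 (C1qa) and was below 0 in 13 of the 14, where 54.4% of all probe sets were below 0. In these 5 animals wildtype 28 and 29 had a higher hair keratin level than transgenic 7, 11 and 84, so this r cannot be told apart from the group difference. With group in the fit the slope of C1qb 1434366_x_at over the 5 animals was -0.06 (limma adjusted p = 0.915), and those of Adgre1 (0.38), Csf1r 1419872_at (0.26), Cd163 (0.83), Mrc1 (0.30), Lyz2 (0.44) and C1qb 1437726_x_at (0.00) were not below 0. These slopes cannot be told apart from the Gapdh ratio. Both it and the hair keratin level set transgenic 11 apart from transgenic 7 and 84. Groups of 4 and 3 animals are too small for a correlation within each group.

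**Figure D4:**
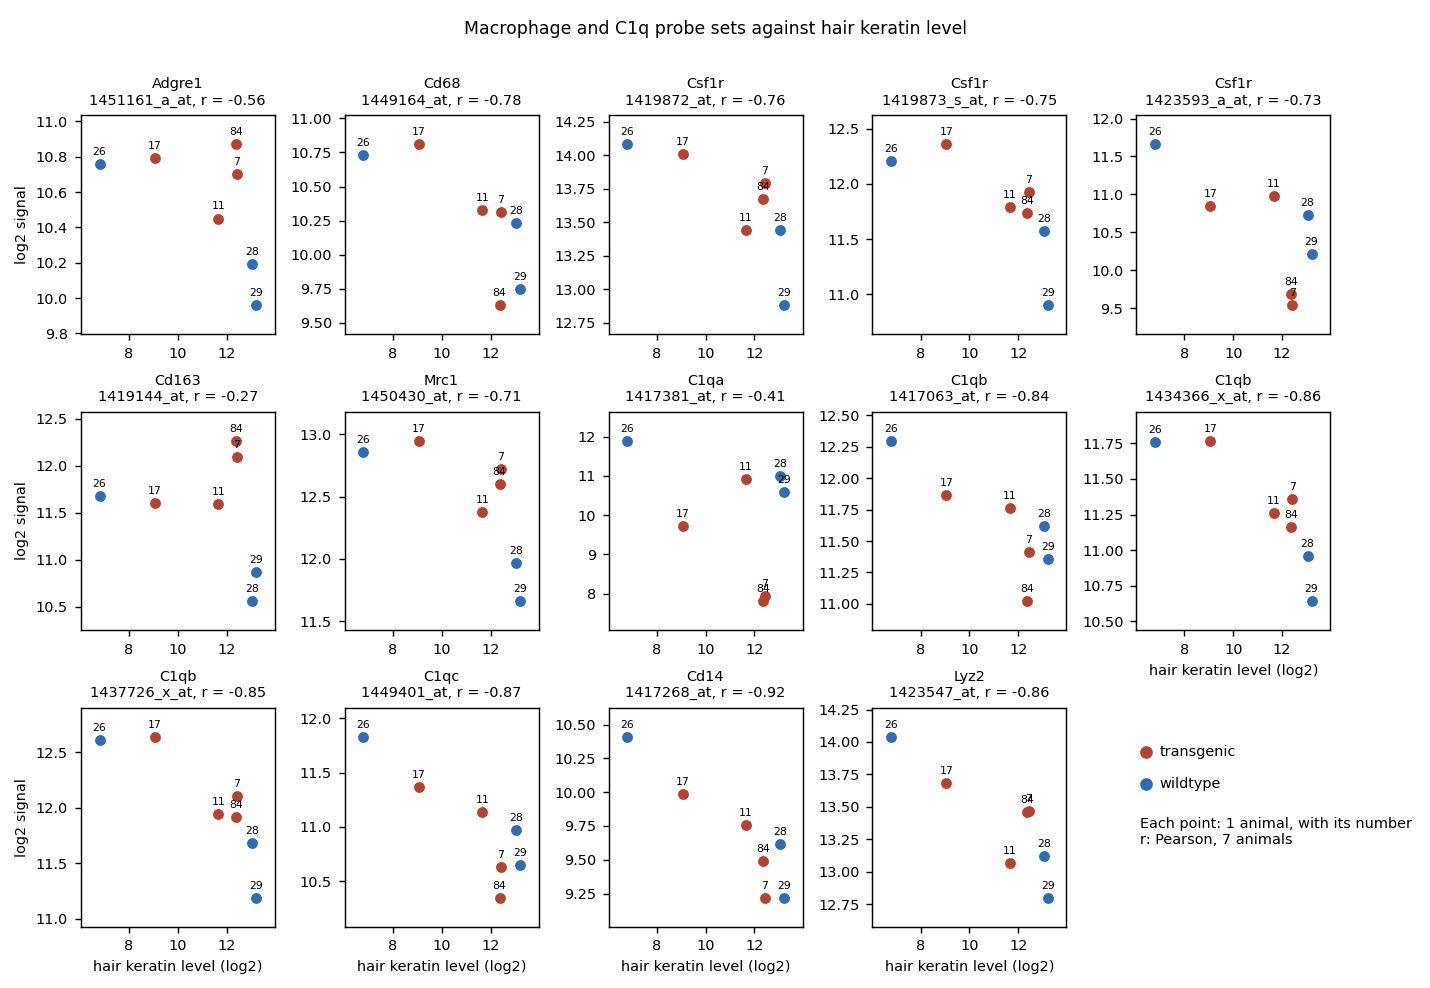
Log2 signal (y axis, with its own range in each panel) of the 14 macrophage and C1q probe sets against the hair keratin level (x axis, mean log2 signal of 12 hair shaft keratins), 1 point per animal, red for transgenic and blue for wildtype, with Pearson's r over 7 animals. Wildtype 26 at 6.80 and transgenic 17 at 9.06 stand to the left of the other animals, which lie between 11.66 and 13.20.

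A fit with both group and hair keratin level, chosen after the values were seen, gave each probe set's slope per log2 unit of hair keratin level with group held constant. All 14 slopes were below 0, with a median of -0.15, where the median over all probe sets was -0.01. Limma called 7 of the 14 lower with rising hair keratin level, beside 1.64% of all 27022 probe sets. C1qb 1437726_x_at fell by 0.19 per unit (SE 0.0318, limma adjusted p = 0.0163) and 1434366_x_at fell by 0.15 (SE 0.0275, adjusted p = 0.0215). Mrc1 fell by 0.15 (SE 0.0311, adjusted p = 0.0337), C1qc fell by 0.18 (SE 0.0388, adjusted p = 0.0392), Cd14 fell by 0.16 (SE 0.036, adjusted p = 0.0423), Lyz2 fell by 0.15 (SE 0.0342, adjusted p = 0.0452) and Csf1r 1419873_s_at fell by 0.16 (SE 0.0362, adjusted p = 0.0477). For the other probe sets of Csf1r and C1qb, and for Cd68, Adgre1, C1qa and Cd163, the limma adjusted p ran from 0.0669 to 0.449. When the Gapdh ratio was added to this fit limma called 12 of the 14 lower, beside 5.25% of all probe sets, and C1qa was among them (slope -0.17, SE 0.028, limma adjusted p = 0.00996). Cd68 (adjusted p = 0.0792) and Cd163 (0.153) were the exceptions. Without the ratio the slope of C1qa was -0.24 (limma adjusted p = 0.403). The fit with the ratio estimates the effects of group, hair keratin level and ratio from only 7 animals, which leaves little to estimate the spread. It was not repeated with animals left out. In it the ratio, high in most transgenic and low in all wildtype animals, cannot be separated well from the transgene.

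The 7 calls of the fit without the Gapdh ratio rested on few animals. The number called was 0 of 14 without transgenic 17 (0.13% of all probe sets), without wildtype 26 (0.037%) or without wildtype 29 (0.0777%). It was 2 without transgenic 84 (0.674% of all), 3 without wildtype 28 (0.929%), 4 without transgenic 7 (1.29%) and 11 without transgenic 11 (3.64%). The slopes of the 7 called probe sets lay between -0.18 and -0.15 without transgenic 17, between -0.17 and -0.12 without wildtype 29, and between -0.25 (C1qc) and -0.08 (Lyz2) without wildtype 26. Without transgenic 17 and wildtype 26 together the slopes of the 14 ran from -4.10 to 0.83. In that fit limma called C1qa and Csf1r 1423593_a_at, beside 1.81% of all probe sets. Its slopes cannot be told apart from the Gapdh ratio. Transgenic 11 had a hair keratin level of 11.66, against 12.42 and 12.37 in transgenic 7 and 84. The Gapdh ratio was 1.45 in transgenic 11, against 13.8 and 17.2 in transgenic 7 and 84.

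With the hair keratin level as a covariate the group differences kept their signs and had smaller standard errors. Mrc1 then stood at 0.55 (SE 0.139, limma adjusted p = 0.159), Cd163 at 0.89 (SE 0.25, adjusted p = 0.177), Adgre1 at 0.43 (SE 0.154, adjusted p = 0.229) and C1qa at -1.99 (SE 0.636, adjusted p = 0.205). At an unadjusted p under 0.05 limma gave 7 of the 14, beside 17.1% of all probe sets, and it called 0 of the 14 and 37 of all (0.137%) at an adjusted p under 0.05. With the Gapdh ratio in its place 13 of the 14 lay above 0, between -0.14 for Lyz2 and 0.45 for Csf1r, and 0 had an unadjusted p under 0.05.

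**Figure D5:**
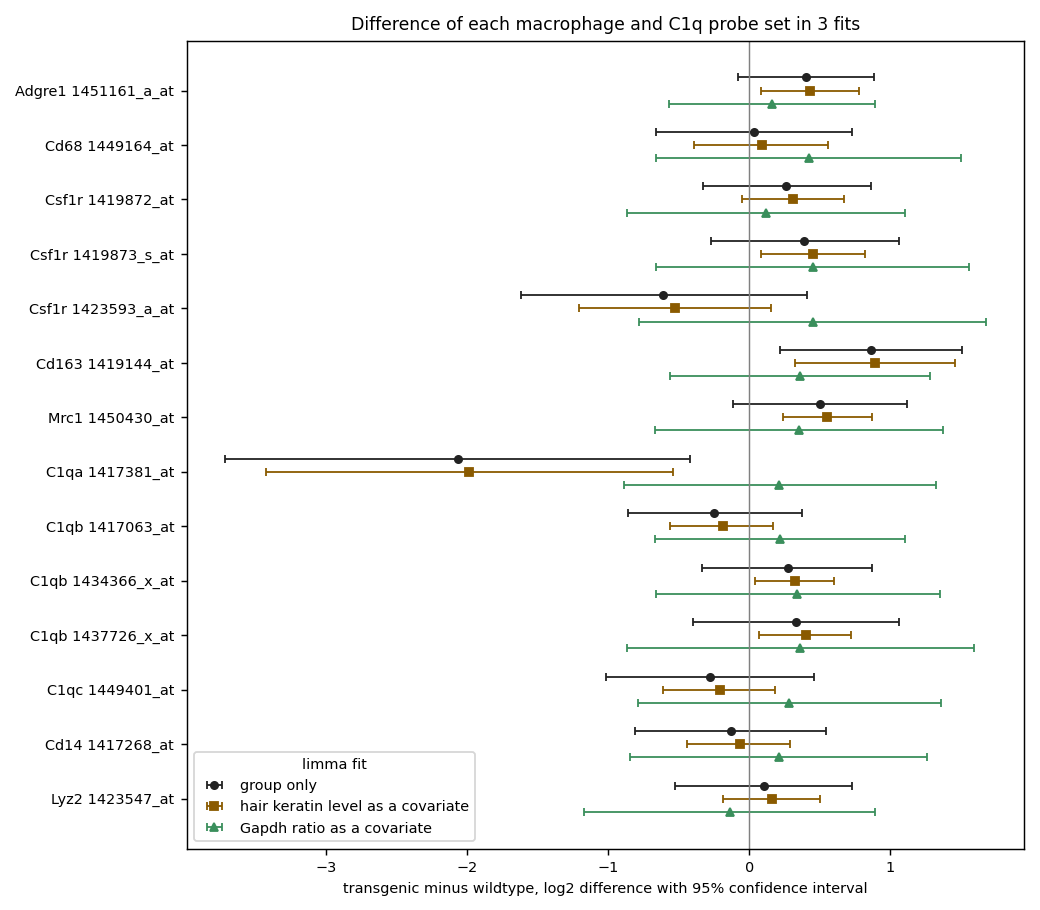
Transgenic minus wildtype log2 difference (x axis) of the 14 probe sets with the 95% confidence interval, from limma fits with group only (circles), with the hair keratin level as a covariate (squares) and with the Gapdh ratio in its place (triangles). C1qa stands at -2.07, -1.99 and 0.21 in the 3 fits, and the intervals of the third include 0 for all 14.

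The animals were of mixed sex, with 1 wildtype female, and the interaction of group and sex was called in 0 of the 14 and 0 of all 27022 probe sets (0.0%) by limma. The transgenic females, 7 and 84, had the highest Gapdh ratios (13.8 and 17.2), so the interaction cannot be told apart from that ratio. The interaction, the transgenic minus wildtype difference in females minus that in males, ran from -1.61 for C1qa to 0.88 for Csf1r 1419872_at. Its unadjusted limma p lay between 0.0517 and 0.989 for the 14, so 0 of them had an unadjusted p under 0.05, beside 2.86% of all.

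With 1 probe set per gene limma called 0 of all 13559 genes between transgenic and wildtype skin, and so 0 of the other macrophage and complement genes. Of the 35 measured ligands, receptors and adaptors 22 lay above 0 (median 0.11), of 11 transcription factors 5 (median -0.10), of 34 effector and lysosomal genes 22 (median 0.12) and of 21 complement genes 18 (median 0.23). Over all 13559 genes 7635 lay above 0, with a median of 0.05. Csf1 measured 9.37, 9.67, 10.08 and 9.38 in transgenic 7, 11, 17 and 84, against 10.41, 9.31 and 9.13 in wildtype 26, 28 and 29, a difference of 0.01. Il34, the ligand made by keratinocytes, gave -0.57 (limma adjusted p = 0.462), and Spi1 gave -0.41. Tyrobp, the signalling adaptor of myeloid receptors, gave 0.21, and C1ra and C1s1, the proteases of the first complement component, gave 0.19 and 0.18.

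The members of these lists with the smallest p were mixed in direction. Lbp, the plasma protein that carries lipopolysaccharide to Cd14, measured 10.82 ± 0.30 for transgenic and 10.12 ± 0.11 for wildtype animals (SD, 4 and 3 animals; difference 0.70, limma adjusted p = 0.301). Gpnmb, a glycoprotein of lipid-laden macrophages and melanocytes, measured 11.26 ± 0.54 for transgenic and 12.20 ± 0.22 for wildtype animals (difference -0.93, limma adjusted p = 0.322). Lyve1, a hyaluronan receptor of lymphatic endothelium and some macrophages, gave 0.86, the scavenger receptor Cd36 gave 0.49 and the receptor kinase Axl gave -0.47. Apoe gave -0.35, Retnla 0.76 and the chemokine Pf4 0.56. Among transcription factors Irf5, Cebpa and Batf3 gave -0.23, -0.38 and -0.36, and among complement genes C6, Cfp, Cfi and Cd55 gave 0.43, 0.38, 0.43 and 0.39, and the limma adjusted p of these complement genes ran from 0.447 to 0.539.

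Genes of the same lists were also called against hair keratin level. Taking each gene's most abundant probe set, limma called 5 of the 10 genes lower with rising hair keratin level, 8 of the 35 ligands, receptors and adaptors, 12 of the 34 effectors, 3 of the 21 complement genes and 0 of the 11 transcription factors, where it called 316 of all 13559 genes lower (2.33%). The median slopes were -0.15, -0.12, -0.13, -0.07 and -0.06, against -0.01 over all genes. Csf1 fell by 0.19 per log2 unit (SE 0.029, limma adjusted p = 0.00961), Fcgr3, an activating receptor for antibody, by 0.24 (SE 0.0293, adjusted p = 0.00359) and Tyrobp by 0.18 (SE 0.032, adjusted p = 0.02). Itgb2, an integrin subunit of leukocytes, had a slope of -0.20 (limma adjusted p = 0.00673), Lcp1, a leukocyte actin bundler, -0.19 (0.00843), Ctss, a cathepsin of antigen-presenting cells, -0.18 (0.0241) and the complement protein C2 -0.19 (0.0374). Il34 had a slope of -0.10 (SE 0.053) and Spi1 one of -0.16 (SE 0.0722), neither of them called.

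Some markers of other cell types were called against hair keratin level as well. Limma called 4 of 11 Langerhans and dendritic cell markers lower with it (median slope -0.13), 1 of 6 T and natural killer cell markers (median -0.15), 1 of 9 mast cell markers (median -0.12), 2 of 8 keratinocyte markers (median -0.01) and 0 of 6 neutrophil, 0 of 6 fibroblast and 0 of 6 endothelial markers (medians -0.11, -0.08 and -0.10). In the opposite direction it called 522 of all 13559 genes higher with hair keratin level. Among them were S100a8 of the neutrophil list (slope 0.33, limma adjusted p = 0.0114) and C1qbp of the complement list (slope 0.11, adjusted p = 0.0412). Most genes of these lists went the other way: 5 of the 6 neutrophil markers had a slope below 0, S100a9 (-0.11) among them. So had 17 of the 21 complement genes. The mean of the fibroblast list lay between 14.08 and 14.40 in transgenic and between 13.69 and 14.55 in wildtype skin, with wildtype 26 highest, and that of the T cell list between 8.14 and 8.81 and between 7.82 and 8.84. The mean over all 13559 genes lay between 9.32 and 9.38 in transgenic and 9.32 and 9.34 in wildtype animals. The part of these cell types in the macrophage result was not tested.

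The genes whose profile over the 7 animals was most like that of C1q, taken as the mean of the standardized profiles of C1qa, C1qb and C1qc, were Cd34 (r = 0.997), Chst12 (0.99), Plxnd1 (0.987), Prrx1 (0.986), Jak3 (0.985), Zfp40 (0.982), Nckap1l, Rcn1 and Clmp (0.981 each) and Cyp4f39 (0.98). Cd34, a surface sialomucin, measured 11.94, 12.51, 12.75 and 11.79 in transgenic 7, 11, 17 and 84, against 13.18, 12.42 and 12.01 in wildtype 26, 28 and 29. With group in the fit, the slopes of these genes on the Gapdh ratio ran from -0.35 (Rcn1) to -0.09 (Prrx1). The profile is highest in wildtype 26 and transgenic 17 and lowest in transgenic 84. Of the probe sets that built it, C1qc correlated with it at 1.0 after rounding, C1qa at 0.73 and C1qb 1437726_x_at at 0.70. C1qa and C1qb 1437726_x_at correlated with each other at 0.01, so the profile is close to that of C1qc alone. An r over 0.9 with the profile was reached by 504 probe sets (1.87% of those tested), and all points share the same 7 animals. Of the probe sets that did not build the profile, C1qb 1417063_at reached 0.98, Cd14 and Csf1r 1423593_a_at 0.94 each and Cd68 0.87, while Adgre1 reached 0.23 and Cd163 -0.12.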

How the data were processed

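Signal intensity on a linear scale was deposited for 8 arrays. The authors made these intensity values with MAS5, per the submitters' processing notes (version not given), from total RNA labelled by the Affymetrix protocol, per the labels. Each array had a 2% trimmed mean of 500.003, and summed signal per array lay between 34785081 and 37857733. The number of arrays limits the precision. Limma p-values set a difference against the spread between these animals, moderated over all tested probe sets.

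Symbols came from the array annotation, updated through gene IDs: 34945 of 45037 probe sets had 1 symbol, 932 several and 9160 none. Intensity plus 21.8 was taken to log2, with no further normalization, and the arrays of wildtype 29 were averaged. The 27022 probe sets with a mean of at least 6.45, the 40th percentile, were tested with limma 3.58.1 in R 4.3.3 (empirical Bayes with trend, 2-sided, Benjamini-Hochberg over all tested, threshold 0.05). Correlations used exact permutations in Python 3.11.15. The limma and correlation steps were tested on simulated data. Probe sets of a gene are given one by one, and lists use the most abundant.

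The genes, lists and tests were chosen with earlier results of these data known. For each macrophage and complement list up to 4 genes with the smallest p are named, plus Csf1, Il34, Tyrobp, Spi1, C1ra and C1s1. Genes named for their hair keratin slope, other than these, were chosen after their values were seen. In the lists of other cell types no gene was named for its p between the groups. Of 235 listed genes 209 matched a probe set with 1 symbol and 183 passed the filter.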

Additional observations from a re-analysis of the deposited data

How the results depend on the processing

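The number of macrophage and C1q probe sets called between transgenic and wildtype skin was 0 of 14 under all 24 alternatives, while the number among all probe sets (4) was 9 with 4 times the pseudocount, 2 with a filter at the 60th percentile, 0 with an ordinary linear model or with the Gapdh ratio, 11 with sex and 37 with hair keratin level as a covariate, 9 with the second array of wildtype 29, 28 with 8 arrays as separate samples, 13 without transgenic 17 and wildtype 26, and 0 (without wildtype 28) to 280 (without transgenic 11) with 1 animal left out. The difference turned in sign with the Gapdh ratio for Csf1r 1423593_a_at (0.45), C1qa (0.21), C1qb 1417063_at (0.22), C1qc (0.28), Cd14 (0.21) and Lyz2 (-0.14), and with both covariates (0.36, 0.13, 0.16, 0.20, 0.13 and -0.22 in that order). Without transgenic 7 and 84 it was 0.04 for Csf1r 1423593_a_at, 0.05 for C1qb 1417063_at, 0.11 for C1qc and 0.13 for Cd14. With 1 animal left out it turned for C1qb 1417063_at (0.03), C1qc (0.06) and Cd14 (0.20) without wildtype 26, for Cd68 (-0.15) without transgenic 17, for Cd68 (-0.21), Csf1r 1419872_at (-0.03) and Lyz2 (-0.16) without wildtype 29, and for Lyz2 (0.00) without wildtype 28. With 1 animal left out the other end of the range was 0.57 for Csf1r 1419872_at, -0.45 for C1qb 1417063_at, -0.53 for C1qc, -0.40 for Cd14, 0.46 for Lyz2 and 0.28 for Cd68. Without wildtype 29 and without wildtype 26 the difference was 0.01 and 0.72 for C1qb 1437726_x_at, 0.03 and 0.59 for 1434366_x_at, 0.06 and 0.72 for Csf1r 1419873_s_at, 0.25 and 0.85 for Mrc1, 0.23 and 0.63 for Adgre1, and -0.93 and -0.21 for Csf1r 1423593_a_at. The difference was -0.04 for Cd68 with the first array of wildtype 29, -0.01 for Lyz2 with cyclic loess, and for Cd14 0.00 with 8 arrays and 0.07 without transgenic 17 and wildtype 26. The count of 7 called against hair keratin level was 12 with the Gapdh ratio, 2 without transgenic 17 and wildtype 26, and 0 to 11 with 1 animal left out, and that of all probe sets (442) was 1419 with the Gapdh ratio and 10 to 983 with 1 animal left out. That slope turned for Cd163 without wildtype 26 (0.16) and, without transgenic 17 and wildtype 26, for Adgre1 (0.38), Csf1r 1419872_at (0.26), Cd163 (0.83), Mrc1 (0.30), C1qb 1437726_x_at (0.00) and Lyz2 (0.44). The r of C1qa ran from -0.56 to 0.04 with 1 animal left out and was 0.18 without transgenic 17 and wildtype 26. The cause of these changes was not tested. The fits on both covariates, the slopes, and those without transgenic 17 and wildtype 26 were chosen after seeing the data. No paired analysis was possible because the animals' numbers are not shared between the groups.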
